A study of Mus musculus with 64 samples.

Results

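Podxl, C2cd4a, Ankrd36, Trnp1, Mchr1 and 0610040J01Rik were followed library by library in scat mice, which cycle between anemic crisis and partial remission. These 6 of the 26286 genes in the normalised count table were chosen by their normalised counts in anemic crisis against young wild type, so their crisis values are described here and not tested. The working description of the set, close to silent in wild type, held for some members only. Over the 18 young wild-type libraries Ankrd36 was listed at 0 in 12, Mchr1 in 11, C2cd4a in 7 and Trnp1 in 3. Podxl was above 0 in all 18 (lowest 27.3, median 186.4, highest 3009), and so was 0610040J01Rik (6.67 to 46.3).

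All mice were of the CbyJ.Cby background, either CbyJ.Cby-Rasa3(scat)/Llp scat/scat or wild type at Rasa3. The product of Rasa3 turns the small GTPases Ras and Rap1 off, and homozygotes for the recessive scat allele pass through episodes of severe anemia with low platelets (crisis) and partial remission. The allele changes the protein, so the amount of Rasa3 transcript does not check the genotype labels. Crisis is represented by 18 libraries of the same 3 mice, 2608 (23 days old), 2629 (28 days) and 2953 (26 days), each sampled in all 6 populations, and young wild type by 18 libraries of 7 mice aged 23 to 28 days. Partial remission is represented by 17 libraries of 5 mice aged 32 to 58 days, and older wild type by 10 libraries of 3 mice aged 32 to 58 days. The 6 populations are whole tissue, megakaryocyte-erythroid progenitors (MEP) and "stem and myeloid progenitors" (SMP, gated as Lin-Sca-Kit+ cells with CD34 present and CD16/32 low) of bone marrow (BM) and spleen (SP). Sca1 is barely expressed on BALB mice, so the SMP gate does not separate stem cells from myeloid progenitors.

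The deposited normalised counts of a library summed to 33600000 to 107600000 (median 50645000). Values below are rescaled counts, the deposited normalised count divided by the library's factor within its population, unless another scale is named. The sorts matched their labels: Cd34, counted over all assigned libraries, had a median of 23500 in SMP and 101 in MEP, and the erythroid factor Klf1 2970 in SMP and 21800 in MEP. Mice 27265 and 2726, both 58 days old, went against their labels. Mouse 27265, labelled wild type, had Podxl at 21574 in BM MEP, where the other older wild-type mouse had 149, and Erfe, the erythropoietin-induced gene for erythroferrone, at 2153 against 93.5. Mouse 2726, labelled remission, had Podxl at 108 and Erfe at 101 in BM MEP, within the range of wild type. One further whole-spleen library of mouse 27265, labelled scat/scat in remission, contradicts that mouse's other labels and entered no comparison. Where leaving out these 2 mice moved a remission result of Podxl or C2cd4a, the value without them is given beside it. Young wild-type mouse m25dwt also stood apart in spleen MEP alone, with Podxl at 3009, C2cd4a at 145 and Erfe at 763.

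Podxl encodes podocalyxin, a heavily sialylated membrane mucin related to CD34, best known from kidney podocytes, vascular endothelium and early blood progenitors, and described as an erythropoietin-responsive surface protein of erythroid progenitors. C2cd4a encodes a nuclear protein with a calcium-dependent lipid-binding fold that is induced by inflammatory signals and is studied in pancreatic beta cells. Trnp1 encodes a chromatin-associated nuclear protein, named for its partner Tmf1, that governs the division of neural progenitors. Mchr1 is the G protein-coupled receptor for melanin-concentrating hormone, a brain peptide of feeding and energy balance. Ankrd36 encodes an ankyrin repeat protein of unknown role, and 0610040J01Rik is a protein-coding gene with no established function.

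The 6 genes lie on 6 chromosomes of GRCm38. Podxl (ENSMUSG00000025608) is at chr6:31519488-31563981 on the minus strand, and its coding transcript has 8 exons. C2cd4a (ENSMUSG00000047990) is at chr9:67830489-67832330, minus strand, with 2 exons. Ankrd36 (ENSMUSG00000020481) is at chr11:5569684-5689337, plus strand, and its longest coding transcript has 27 exons. Trnp1 (ENSMUSG00000056596) is at chr4:133491100-133498550, minus strand, with 2 exons. Mchr1 (ENSMUSG00000050164) is at chr15:81235499-81238964, plus strand, with 2 exons. 0610040J01Rik (ENSMUSG00000060512) is at chr5:63812363-63899625, plus strand, with 4 exons. The processed pseudogene Gm11964 lies inside Ankrd36 on the same strand, and its highest value in any library was 3.86 deposited counts.

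Promoters of 300 bases, 250 before and 50 after the RefSeq start (GRCm38.p6), were at hand for 5 members, all but Podxl. Both strands were searched for 4 motifs. The STAT5 motif TTCNNNGAA was in 0 of the 5 promoters (8.3% of 32851 promoters hold it), the GATA motifs AGATAA or TGATAA in 2 (18.6%), CACCC in 3 (57.5%) and the hypoxia response core ACGTG in 4 (19.6%). In each of those 4 a core sits within the palindrome CACGTG (C2cd4a has 1 further core outside it and Ankrd36 2), the E-box read by basic helix-loop-helix factors, which 7.15% of all promoters hold. The palindrome was singled out after its matches were seen. It lies 93 bases before the RefSeq start of C2cd4a, 30 before that of Ankrd36, 193 before that of Mchr1 and 53 before that of 0610040J01Rik. The stretches around it are shown because this is the sequence feature that these 4 promoters share and that of Trnp1 lacks, with the palindrome in capitals and each read 5′ to 3′ on the strand of the gene. They are chr9:67832398-67832463 (minus), chr11:5569614-5569679 (plus), chr15:81235266-81235331 (plus) and chr5:63812402-63812467 (plus), in that order. In the GENCODE annotation 0610040J01Rik begins at chr5:63812363, upstream of its RefSeq start, so its palindrome lies inside the gene as annotated there. A match describes letters and does not show that a factor binds there.
C2cd4a: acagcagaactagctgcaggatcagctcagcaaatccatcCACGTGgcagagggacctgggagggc
Ankrd36: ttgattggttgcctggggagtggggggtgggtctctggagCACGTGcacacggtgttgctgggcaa
Mchr1: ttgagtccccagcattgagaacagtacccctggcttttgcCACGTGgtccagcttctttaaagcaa
0610040J01Rik: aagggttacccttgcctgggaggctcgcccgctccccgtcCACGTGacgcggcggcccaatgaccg

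By group means Podxl was the most abundant of the transcripts in crisis, in counts, although in mouse 2953 Trnp1 was above it in SP SMP and BM SMP. The crisis mean of Podxl was highest in MEP. In BM MEP the crisis mice had 8050 (2608), 31324 (2629) and 16731 (2953) counts, and the young wild-type mice 219, 46.6 and 132. Every crisis library was above every young wild-type library, and the ratio of means was 141 (log2 7.18, SE 1.94). In SP MEP the crisis values were 12716, 29392 and 17181, against 425, 85.2 and 3009 in young wild type. The groups did not overlap there either, although the wild-type library at 3009 is the one that stood apart.

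Whole tissue gave the same separation for Podxl. In whole spleen the crisis mice had 5280, 11699 and 8438 counts, against 88.1, 27.3 and 74.8 in young wild type, a ratio of means of 134 (log2 7.13, SE 1.48). In whole bone marrow they had 1166, 6276 and 3526, against 68.3, 154 and 135, a ratio of 30.7. In whole tissue, more cells of a type and more RNA per cell cannot be told apart. In SP SMP, where wild type was not low, the crisis values were 6190, 34960 and 11914 against 839, 955 and 732, a ratio of 21. Without mouse 2629 the ratio was 10.8 in SP SMP, 19.7 in whole bone marrow and 93.5 in BM MEP. In BM SMP the crisis values of Podxl were 1720, 6349 and 3652 against 308, 436 and 396, a ratio of 10.3. The crisis libraries thus lay above all young wild-type libraries in 6 of 6 populations. This contrast chose the members. The share of all genes separated in this way was not counted, here or for the other members below. The mouse order was the same throughout, with 2629 highest and 2608 lowest.

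Podocalyxin is also an endothelial protein, so the endothelium list (Cdh5, Pecam1, Kdr and 6 others) was read beside it. Its summed level in whole spleen was 38.1 to 70.3 CPM (normalised counts scaled to one common library total) in crisis and 120 to 167 in young wild type, and in whole bone marrow 63 to 79.8 against 123 to 154. In no population did the crisis libraries lie above young wild type for this list, and in 3 of 6 they lay below. Single genes of the list differed. Cdh5, which encodes the endothelial cadherin, was at 37.3 to 135 counts in crisis BM SMP and 24.3 to 93.4 in young wild type, and in SP MEP it was at 0 in all 3 crisis libraries and at 0 to 1.32 in young wild type. Pecam1, also carried by platelets and leukocytes, was at 29.2 to 31.9 in crisis SP MEP and 92.2 to 494.6 in young wild type. The part of endothelial cells in the Podxl values was not tested.

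C2cd4a followed Podxl at a lower level. In BM MEP the crisis mice had 425, 1389 and 890 counts, and the young wild-type mice 11.9, 0 and 2.36. In SP MEP they had 641, 1190 and 669, against 10.7, 3.12 and 145. No young wild-type library reached the lowest crisis library in these or in the other 4 populations. Older wild-type mouse 27265 did in 3 of its 4 assigned libraries, with 914 in BM MEP, 1724 in SP MEP and 181 in whole bone marrow. The whole-spleen values were 121, 310 and 256 in crisis against 1.46, 0 and 2.27, and the whole-marrow values 55.7, 207 and 112 against 5.41, 1.23 and 0. SP SMP showed the widest spread between crisis mice, 55.2, 1389 and 216, a 25.2-fold range, against 0, 1.96 and 4.87 in young wild type. In BM SMP the crisis values were 57.4, 173 and 56.9, and C2cd4a was listed at 0 in all 3 young wild-type libraries, so no fold is given. Mouse 2629 was the highest crisis mouse in 6 of 6 populations for C2cd4a as for Podxl.

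**Figure D1:**
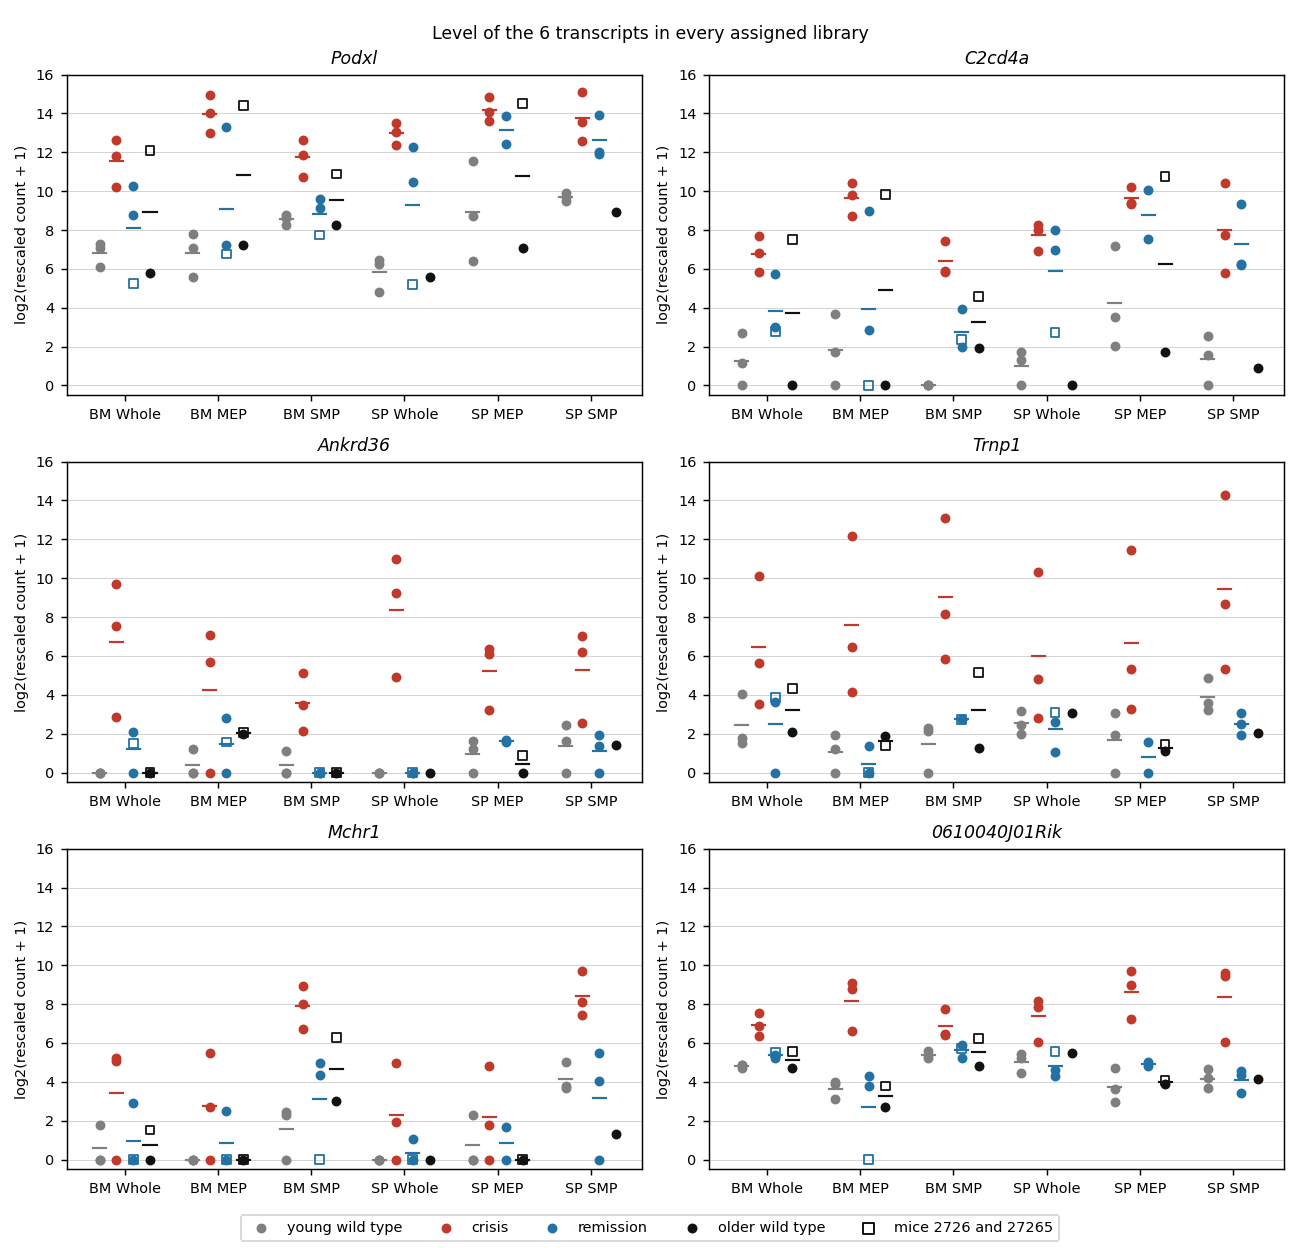
Level of each transcript in every assigned library, as log2(rescaled count + 1) on the vertical axis, by population on the horizontal axis; points are libraries, short lines group means, and open squares the libraries of mice 2726 and 27265. Podxl and C2cd4a are high in crisis and again in several remission libraries, while the other 4 transcripts have their highest values in crisis, with mouse 27265 between the groups for Mchr1 and Trnp1 in BM SMP.

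Ankrd36 was the transcript most nearly absent outside crisis. In whole spleen the crisis mice had 28.9 (2608), 608 (2629) and 2055 (2953) counts, and all 3 young wild-type, all 3 remission and the 1 older wild-type library were listed at 0. In whole bone marrow the crisis values were 6.37, 186 and 836, with all 3 young wild-type libraries at 0. The level in mouse 2608 was low in both tissues, and in BM MEP it was 0, beside 51.1 in mouse 2629 and 136 in mouse 2953. In the sorted cells Ankrd36 stayed lower, at 8.35, 67.8 and 80.9 in SP MEP, 4.94, 71.7 and 128 in SP SMP, and 3.37, 10.1 and 33.7 in BM SMP. The highest young wild-type library of any population had 4.36. Crisis lay above every young wild-type library in 5 of 6 populations, the exception being BM MEP.

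Trnp1 differed most between crisis mice. In SP SMP it was at 38.6 (2608), 414 (2629) and 19959 (2953), a 517-fold range within 1 group, against 11.1, 27.8 and 8.21 in young wild type. In BM SMP it was at 56.3, 285 and 8609, against 3.87, 0 and 3.48. The ratio of crisis to young wild-type means was 434 in SP SMP with all 3 mice and 14.4 without mouse 2953, and in whole spleen 86.6 and 3.21.

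The same mouse stood out for Trnp1 in the other populations. In BM MEP the crisis values were 16.6, 86.4 and 4576, in SP MEP 8.52, 39.1 and 2790, in whole bone marrow 10.7, 49.6 and 1100, and in whole spleen 5.99, 26.9 and 1298. Mouse 2608 lay within the young wild-type range in both whole tissues, where the highest wild-type libraries had 15.4 (marrow) and 7.95 (spleen). Crisis was above every young wild-type library in 4 of 6 populations, which are the sorted ones.

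Mchr1 was largely a transcript of SMP. In SP SMP the crisis mice had 170 (2608), 276 (2629) and 825 (2953) counts, and young wild type 11.9, 31.5 and 12.9, a ratio of means of 22.5 (11.9 without mouse 2953). In BM SMP crisis had 105, 255 and 486, and young wild type 3.91, 4.5 and 0. In these 2 populations the groups did not overlap. Elsewhere 4 of the crisis libraries were listed at 0 and the highest had 43.7. On the scale shared by all libraries, the lowest BM SMP crisis library (101) was above the highest crisis library of any other population than SP SMP (45.2). The ligand gene Pmch was no higher in crisis than 44.2 in any population, and its limma test did not pass in any population (adjusted p 0.277 or more).

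0610040J01Rik was above 0 in every young wild-type library and higher again in crisis. In SP MEP the crisis values were 151, 500 and 827, against 6.67, 24.9 and 11.2 in young wild type, a ratio of 34.5. In BM MEP they were 98.4, 433 and 539, against 14.7, 13.7 and 7.64, a ratio of 29.7. In SP SMP they were 65.6, 688 and 763, against 17.1, 11.7 and 24.1, a ratio of 28.7. In BM SMP and both whole tissues, where wild type was at 20.6 to 46.3, the ratios were between 3.12 and 5.9. Without mouse 2953 the ratio was 22.8 in SP MEP and 2.07 in BM SMP. It was the only member whose crisis libraries lay above every young wild-type and every remission library in 6 of 6 populations. The share of all genes separated from both groups was not counted, and the crisis and young wild-type values chose the members.

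By population, on the scale shared by all libraries, the crisis means of Podxl ran from 22611 ± 10149 in SP MEP and 19612 ± 12565 in BM MEP down to 3628 ± 2123 in BM SMP (SD, n = 3 each). C2cd4a had the same order of populations, from 954 ± 367 in SP MEP to 89.1 ± 61.3 in BM SMP. Ankrd36 was instead highest in whole spleen (888 ± 1035) and whole bone marrow (355 ± 449), ahead of BM MEP (64.9 ± 71). Trnp1 led in SP SMP (5503 ± 9227) and BM SMP (2748 ± 4486). For every member each population overlapped its neighbour in this order, with 1 exception, the step from BM SMP to whole marrow for Mchr1 (101 to 447 against 0 to 39.3).

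Across the 18 crisis libraries, all from the same 3 mice, the members split by which mouse was highest. Podxl and C2cd4a peaked in mouse 2629 in 6 of 6 populations, a pattern that 570 of 13129 genes (4.34%) showed. Ankrd36, Trnp1 and 0610040J01Rik rose in the order 2608, 2629, 2953 in 6 of 6 populations, as did 97 of 13129 genes (0.739%). Mchr1 had that order in 4 of 6 and peaked in mouse 2953 in 5. The 6 populations of a mouse share the animal, so these counts are a description of 3 mice. Podxl ran 2608, 2953, 2629 in 6 of 6 populations and C2cd4a in 5, which is the order of the ages (23, 26 and 28 days) and which 60 of 13129 genes (0.457%) showed in all 6. With 1 mouse per age, age and mouse cannot be told apart. Of the marker lists, the stem and early progenitor list was highest in mouse 2953 in 6 of 6 populations (1400 CPM in SP SMP, against 1360 and 421) and the erythroid list highest in mouse 2629 in 5 of 6. Their part in the mouse order was not tested.

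**Figure D2:**
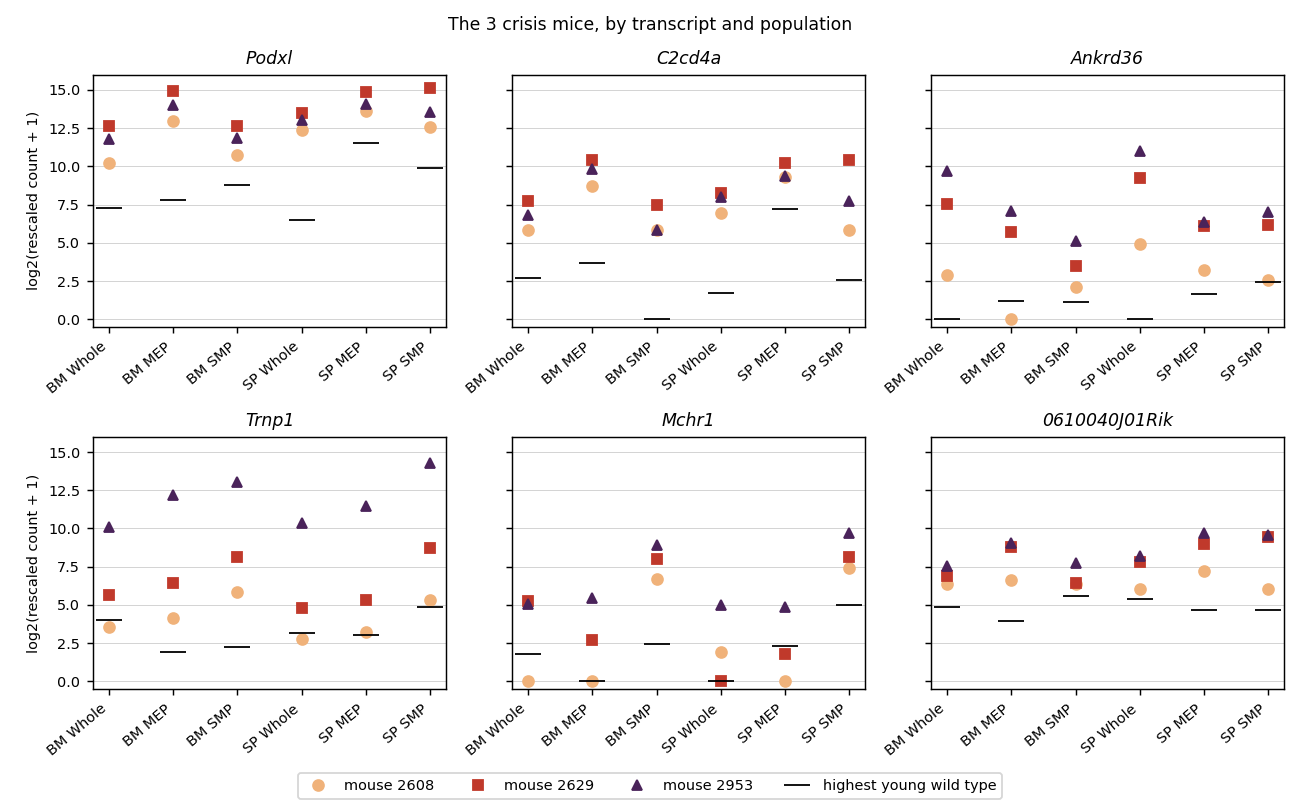
The 3 crisis mice for each transcript, as log2(rescaled count + 1) on the vertical axis, by population on the horizontal axis, with a dash at the highest young wild-type library. Mouse 2629 is on top for Podxl and C2cd4a in 6 of 6 populations, and mouse 2953 for Ankrd36, Trnp1 and 0610040J01Rik.

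Remission asked whether the transcripts had returned to wild-type levels as the anemia eased. Podxl in remission was 1224 in whole bone marrow of mouse 2976 and 431 in mouse 32dscat, against at most 154 in young wild type, and 36.6 in mouse 2726. In whole spleen it was 4972, 1407 and 35.3 in the same 3 mice, against at most 88.1 in young wild type. In SP SMP, which holds neither of the mice that went against their labels, remission mice 2866, 2868 and 2976 had 4179, 15518 and 3878, all above the highest young wild-type library (955). Of the 17 remission libraries, 12 were above every young wild-type library of their population for Podxl, and the remaining 5 included all 4 of mouse 2726. The share of all genes at such a count was not computed. Young wild type also took part in the choice of the members and was younger than remission. No incomplete return is therefore read from the count.

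C2cd4a was above every young wild-type library in 15 of 17 remission libraries, again with no share over all genes computed. No incomplete return is read from this count either. Of the 4 libraries of mouse 2726, 3 were above for C2cd4a (5.77 or less in each) and 0 for Podxl. In SP SMP it was at 76.4, 654 and 73.7 in remission, against 0.849 in the older wild-type library and at most 4.87 in young wild type. In whole spleen it was at 255 (2976), 126 (32dscat) and 5.56 (2726), with the older wild-type library at 0. In SP MEP the 2 remission mice had 1057 and 186, and the crisis mice 641 to 1190. Mouse 2976 was thus within the crisis range there, as was its Podxl value of 14998.

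For the other 4 transcripts every remission library was below crisis mouse 2953 in the same population. Some remission libraries were above every young wild-type library of their population: 9 of 17 for 0610040J01Rik, 6 for Mchr1, 5 for Ankrd36 and 3 for Trnp1. The share of all genes at such counts was not computed, so no incomplete return is read from them. For Ankrd36 and Mchr1 most young wild-type libraries were listed at 0. Ankrd36 did not exceed 6.07 in any of the 17 remission libraries and was listed at 0 in 9. Trnp1 did not exceed 13.6, in groups where crisis mouse 2953 had 1100 or more. Mchr1 reached 44.1 at most, in SP SMP of mouse 2976, and 0610040J01Rik 59.5, in BM SMP of mouse 32dscat. Mouse 2976, whose Podxl was 3878 or more in all spleen populations and BM MEP, had Trnp1 between 0 and 11.3 over its 6 libraries.

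**Figure D3:**
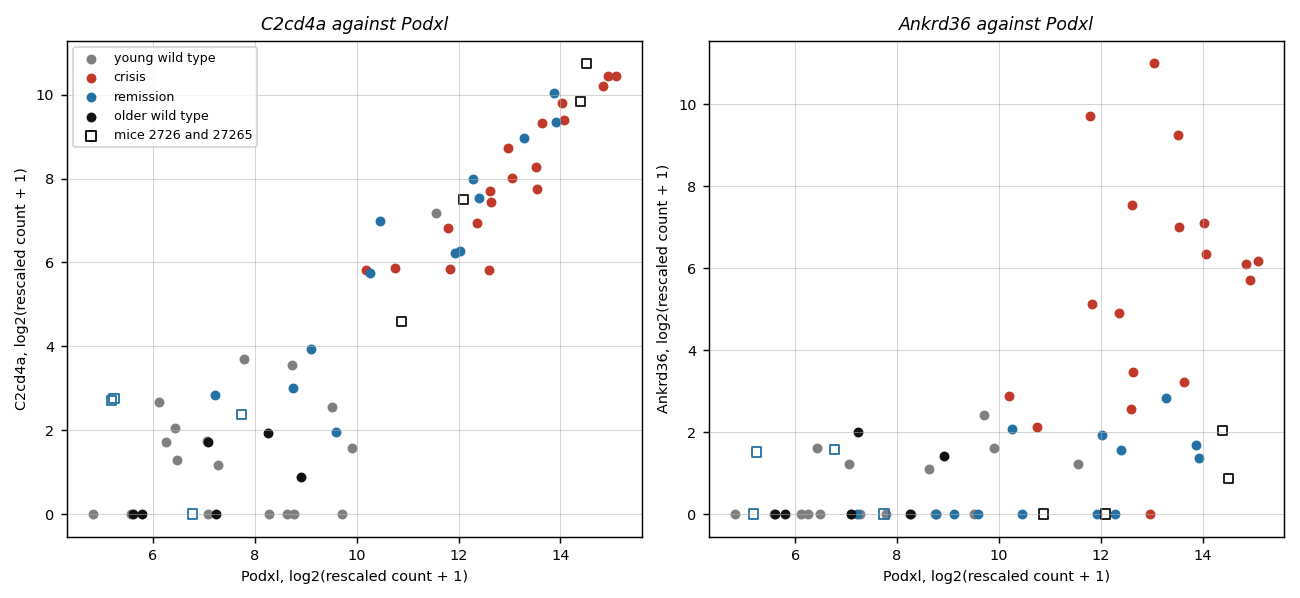
C2cd4a (left) and Ankrd36 (right) on the vertical axes against Podxl on the horizontal axes, as log2(rescaled count + 1), 1 point per assigned library, coloured by state, with open squares for mice 2726 and 27265. C2cd4a climbs with Podxl in every state, in wild type with its highest values in libraries of mouse 27265. Ankrd36 is above 3 in crisis libraries only.

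Over the 63 assigned libraries, on log2 values scaled over all of them, Podxl and C2cd4a had a Pearson r of 0.918, the highest that Podxl had with any of 15938 genes. Within states r was 0.926 in 18 crisis libraries, 0.894 in 17 remission libraries and 0.843 in 28 wild-type libraries. The wild-type libraries include the 4 of mouse 27265 and the SP MEP library of m25dwt, which were high in both genes or stood apart. The value of r without them was not computed, so r in ordinary wild type is not known. These libraries share mice and depth, and r is given as a description. The next genes for Podxl were Gdf3 (0.874), Gm6166 (0.86), Fabp5 (0.852) and Cda (0.845), and those for C2cd4a included Cda (0.894), Cpd (0.85) and Irs2 (0.834). Fabp5 is a fatty acid carrier, Cda is cytidine deaminase and Irs2 an adaptor of the insulin receptor.

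Ankrd36 was most like 4930594O21Rik (0.884), Mob1b (0.849), Adgrg2 (0.833), Tlk2 (0.825) and Homer2 (0.812). Trnp1 was most like Lama5 (0.803), 0610040J01Rik (0.789), Pkd1l3 (0.752), Tph1 (0.743) and Ankrd36 (0.733). Members were chosen by their crisis values, which raises r between them over all libraries. Within crisis, remission and wild type, r of Trnp1 with Ankrd36 was 0.463, -0.257 and 0.0969. With 0610040J01Rik it was 0.616, 0.46 and 0.404, and with Mchr1 0.717, 0.184 and 0.472. 0610040J01Rik had its closest likeness to Trnp1 and then to Lama5 (0.745), Mpdu1 (0.711), Tph1 (0.707) and Homer2 (0.705). The laminin gene Lama5 and Tph1, the rate-limiting enzyme of serotonin synthesis outside the brain, were thus near both. Mchr1 was most like Fkbp5 (0.79), a chaperone gene strongly induced by glucocorticoids, Nlrp6 (0.781), Trnp1 (0.718), Stc2 (0.718) and Khk (0.714).

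Remission was tested against older wild type with limma, adjusted over all genes of a population. None of the 31 member tests passed, the smallest adjusted p being 0.587, and 3 had an unadjusted p under 0.05 (Podxl and C2cd4a in SP SMP, C2cd4a in whole spleen), as did 1263 of 15452 genes in SP SMP and 129 of 16113 in whole spleen. The regularised log2 values gave 0 calls as well. The filter on the mean counted the crisis libraries too, so some members entered these tests through crisis alone. Ankrd36 in whole spleen was at 0 in every remission and older wild-type library, so its test there could not pass. For members near 0 in both groups, nothing is read from the lack of a call. The residual spread of each fit also took in the crisis libraries. Over all genes the share called was 0% in BM MEP, BM SMP, whole bone marrow, SP MEP and whole spleen, and 0.0129% in SP SMP, so hardly any gene passed in this design. In SP SMP the log2 difference of Podxl was 3.71 (SE 0.879) and that of C2cd4a 6.40 (SE 1.72), both with a limma adjusted p of 0.587, 3 remission libraries against 1.

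Leaving out mice 2726 and 27265 moved these estimates. Both mice were singled out on expression in these libraries, Podxl included, so the direction of the move was fixed by the choice, and the values without them are a description with no test. In whole spleen the log2 difference of Podxl went from 3.70 to 5.76 and that of C2cd4a from 5.90 to 7.47, with 2 remission libraries against 1, in a fit in which 29% of all genes passed. In BM MEP Podxl went from -1.73 to 3.02 and C2cd4a from -0.98 to 5.84. In whole bone marrow Podxl went from -0.86 to 3.71 and C2cd4a from 0.09 to 4.39.

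**Figure D4:**
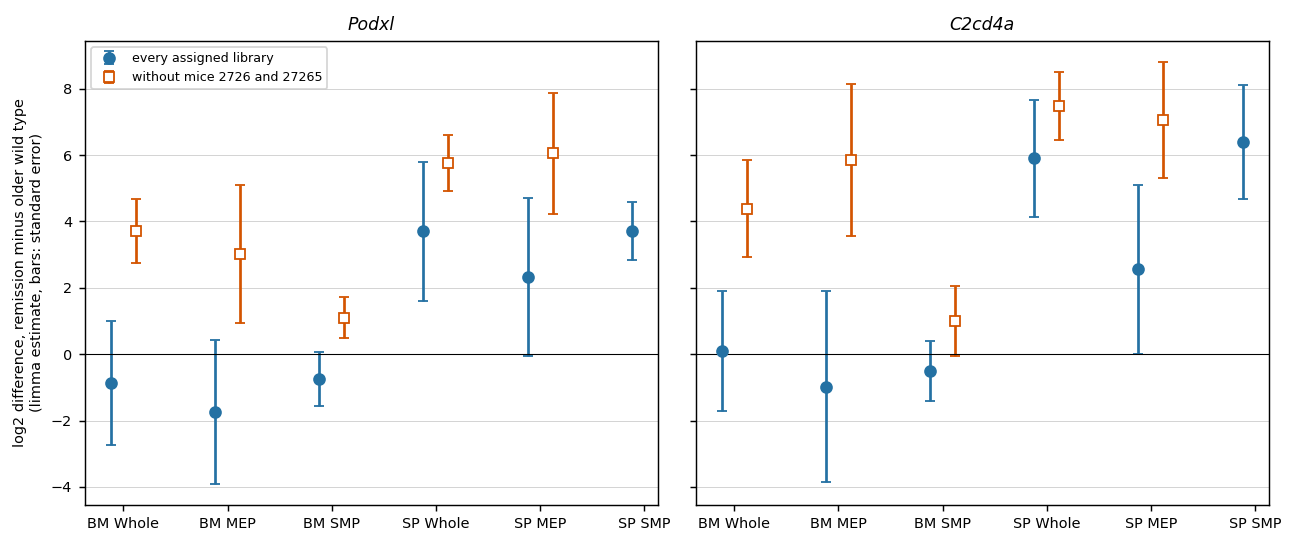
Log2 difference of Podxl (left) and C2cd4a (right) between remission and older wild type on the vertical axis, by population, as limma estimates with standard errors, for every assigned library (filled circles) and without mice 2726 and 27265 (open squares, not drawn for SP SMP, which holds neither). In BM MEP Podxl is at -1.73 with the 2 mice and at 3.02 without them, a move fixed by leaving out a remission mouse low in Podxl and a wild-type mouse high in it.

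Among remission libraries, spleen was set against bone marrow in a fit over all populations. None of 18 member tests passed. Here too the filter counted the crisis libraries, and Ankrd36 and Trnp1, low in every remission library, entered through crisis. Of the members, 0 had an unadjusted p under 0.05 in whole tissue, 3 in MEP and 3 in SMP, and of 15938 genes 5034, 2334 and 2162. The share called over all genes was 18.9% in whole tissue, 5.13% in MEP and 1.68% in SMP. Podxl was higher in spleen by a log2 difference of 4.16 in MEP (SE 1.87, limma adjusted p = 0.255) and 3.61 in SMP (SE 1.67, 0.32), and C2cd4a by 5.00 (SE 2.2, 0.236) and 4.32 (SE 1.96, 0.312). Without mice 2726 and 27265 these were 3.0 and 3.08 for Podxl and 3.01 and 4.14 for C2cd4a. 0610040J01Rik differed by 2.39 in MEP (adjusted p = 0.112), and by 3.18 (0.0165) without the BM MEP library of mouse 32dscat and 1.01 (0.896) without mice 2726 and 27265.

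Within remission marrow, 0610040J01Rik was lower in MEP than in SMP by a log2 difference of -2.83 (SE 0.781, limma adjusted p = 0.0024), 1 of 6 members called where 53.8% of all genes were. The 3 MEP libraries had 0, 12.8 and 18.4 counts on their own scale, the 0 being mouse 2726, and without that library the difference was -1.46 (adjusted p = 0.0961). Mchr1 differed by -2.21 (adjusted p = 0.185), and by -3.74 (0.0383) without the BM SMP library of mouse 2726.

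The pathways that the members belong to were read from 5 lists, tested in crisis against young wild type in the whole table. Over all genes the share called was 7.52% in BM SMP, 8.59% in whole bone marrow, 31% in SP SMP and 15.2% in whole spleen, and in MEP only 0.00693% (marrow) and 0.0366% (spleen). The MEP results are therefore given as values. All calls below are limma adjusted p under 0.05.

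Genes of the erythropoietin and STAT5 response, the pathway in which Podxl has been described as a target, included calls in both whole tissues. Of 15 genes, 5 rose and 1 fell in whole bone marrow, and 6 rose and 2 fell in whole spleen, where the list's median log2 difference was 1.04 against -0.05 over all genes. Erfe rose by 6.30 (adjusted p = 0.0348) in marrow and 6.89 (0.028) in spleen, and Cish, a feedback inhibitor of the erythropoietin receptor, by 5.66 (0.027) and 5.59 (0.0224). Socs3, another feedback inhibitor, rose by 3.05 (0.0213) and 2.11 (0.0224), and the survival kinase Pim1 by 2.19 (0.0248) and 2.98 (0.0265). The cytokine gene Osm rose in spleen by 2.23 (0.0224). Cell type markers moved with these genes: the B cell list was at 538 to 566 CPM in crisis whole spleen against 4630 to 5210 in young wild type, and at 212 to 1810 against 3740 to 4590 in whole bone marrow. The T and NK cell list was at 13.9 to 42.5 against 299 to 440 in whole spleen, and the erythroid list at 109000 to 137000 against 57500 to 104000 in whole bone marrow. In the other tissue each of these 2 lists overlapped between the groups. The T and NK cell list was at 42.9 to 74.1 against 61.1 to 68.2 in whole bone marrow. The erythroid list was at 151000 to 232000 against 150000 to 153000 in whole spleen. Their part in the whole-tissue calls was not tested. The genes that fell, named after their values were seen, were the kinase gene Pim2 in both tissues (by 0.99 on the log2 scale, 0.0289, and by 1.28, 0.0224) and Sh2b3 in spleen (by 1.28, 0.0413).

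In SMP, 4 of the 15 rose and 0 fell in marrow, where 7.52% of all genes were called. In spleen 2 rose and 1 fell, where 31% of all genes were called, so the list was not above that share there. Erfe rose by 2.84 (adjusted p = 0.0246) in BM SMP and 4.76 (0.0217) in SP SMP, and Epor, the receptor itself, by 1.74 (0.0214) and 1.68 (0.0264). Socs3 rose by 2.09 (0.0202) and Pim1 by 0.38 (0.036) in BM SMP. The adaptor Sh2b3, a brake on the receptor, fell in SP SMP by 0.88 (0.0217). The erythroid marker list moved with these genes in SMP, at 1720 to 2770 CPM in crisis BM SMP against 699 to 1080 in young wild type, and 6040 to 11500 in crisis SP SMP against 1610 to 6320. Its part in the SMP calls was not tested. In MEP 0 of 15 passed, with Cish at 1160 to 10645 in crisis BM MEP and 187 to 358 in young wild type.

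Of the 7 relatives and partners of podocalyxin, 1 fell in BM SMP, 1 rose and 2 fell in SP SMP, and 1 fell in whole spleen. Over all genes 7.52% were called in BM SMP, 31% in SP SMP and 15.2% in whole spleen. Cd34, the family member that defines the SMP gate, fell by 0.74 on the log2 scale in BM SMP (adjusted p = 0.0202) and by 1.45 in SP SMP (0.0367). Slc9a3r2, which encodes the scaffold that links podocalyxin to ezrin, fell by 1.64 in SP SMP (0.0307), and its relative Slc9a3r1 by 1.66 in whole spleen (0.0279). The linker gene Rdx was the 1 member of the list that rose (0.51 in SP SMP, adjusted p = 0.0336). Of the C2cd4 family, the 3 other genes were below the filter in every population, and C2cd4b, the neighbour of C2cd4a, had at most 1.38 counts in crisis or young wild-type libraries.

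Of the 13 partners of Trnp1 (Tmf1 and the BAF chromatin remodelling complex), 2 fell in BM SMP, 2 in whole bone marrow and 1 in whole spleen with 0 rising, and in SP SMP 3 fell and 1 rose. Over all genes 7.52%, 8.59%, 15.2% and 31% were called in these populations, in that order. The counts in whole spleen and SP SMP were thus not above the share over all genes. The ATPase gene Smarca2 fell by 0.40 (adjusted p = 0.0315) in BM SMP, 0.90 (0.0472) in SP SMP and 1.53 (0.0361) in whole spleen. Arid1b fell by 0.47 (0.0275), 0.94 (0.0218) and, in whole bone marrow, 0.87 (0.0303). The other ATPase gene, Smarca4, fell by 1.49 (0.0262) in whole bone marrow. In SP SMP the subunit gene Arid1a fell by 0.87 (0.0217), and Actl6a, the actin-like subunit of proliferating progenitors, rose by 0.74 (0.0274). Of the melanin-concentrating hormone list, Gnaq, a G protein used by the receptor, fell by 1.74 in SP SMP (0.0219) and 1.22 in whole spleen (0.0391), and no other gene of the list passed. In SP SMP the stem and early progenitor list was at 421 to 1400 CPM in crisis against 2020 to 2480, and the neutrophil list at 191 to 758 against 783 to 1330. Their part in the SP SMP falls, and that of the lymphoid markers in the whole-spleen falls of Slc9a3r1, Smarca2 and Gnaq, was not tested. Counts of list genes did not hold when a library was left out. Leaving out 1 young wild-type library in whole bone marrow, whole spleen or SP SMP, whichever it was, took the calls from 8, 11 and 11 to 0. The same happened without crisis mouse 2629 or 2953 in either whole tissue, and in BM SMP (7 calls) without young wild-type mouse 2658 or m25dwt. A group is smaller in such a fit, and the share of all genes called there was not counted. Among the calls followed gene by gene were those of most list genes named here and of the chromosome neighbours Tent5b and Vps13c, 37 in all. Each of the 37 was lost under at least 1 of the alternatives tried, and none changed direction. The remaining list calls, Pim2 among them, were not followed in this way.

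Tent5b and Vps13c, neighbours on the chromosome, also differed between crisis and young wild type. Tent5b, 3157 bases from Trnp1, had 41.6 to 255 counts in crisis SP SMP against 0 to 5.62 in young wild type (log2 5.53, SE 1.11, limma adjusted p = 0.0217), and 18 to 167 against 1.32 to 4.66 in BM SMP (log2 3.50, SE 0.851, 0.0345). Its groups did not overlap in 5 of 6 populations, the exception being SP MEP. The share of all genes separated in this way was not counted, for Tent5b or for Vps13c. Vps13c, 7986 bases from C2cd4a and coding for a lipid transfer protein, was above every young wild-type library in 6 of 6 populations and rose by 1.51 in whole spleen (SE 0.318, 0.0237) and 1.22 in SP SMP (SE 0.316, 0.0243). Mkln1, 2684 bases from Podxl, overlapped between groups in all populations but whole spleen (log2 0.81, SE 0.254, adjusted p = 0.0596). Mrps24, a neighbour of Ankrd36, rose by 0.83 in SP SMP (SE 0.255, 0.0352), and Gm6117, on the other side of Podxl, overlapped between groups in 6 of 6 populations. The calls of Tent5b and Vps13c were also lost on leaving out single libraries: without 1 young wild-type library, whichever it was, the adjusted p of Tent5b in SP SMP was 0.0605 to 0.0684 and that of Vps13c in whole spleen 0.0764 to 0.103. Nwd2, 1111 bases from 0610040J01Rik, had at most 24.2 counts in any crisis library.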

How the data were processed

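RNA was sequenced from bone marrow and spleen of 18 mice (KAPA mRNA HyperPrep, per the labels' protocols). Bowtie2 2.2.0, RSEM, DESeq2 and the GRCm38 build are listed, without order or role, per the submitters' processing notes. The authors deposited normalised counts, a signal per gene and library, and a table of regularised log2 values, in which 64 libraries are named. Of 26286 identifiers, 25607 had a symbol.

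Each column was divided by a factor, its median ratio to geometric means taken within the population (log2 of the factor -0.918 to 0.518) or over all assigned libraries for comparisons across populations. Genes with a mean of at least 10 over all libraries of the fit, crisis included, were kept. They entered limma 3.58.1 (R 4.3.3) on log2(count + 1), with trend and robust empirical Bayes. Tests were two-sided, with p-values adjusted after Benjamini-Hochberg across the genes tested, at a threshold of 0.05. A fold on this scale understates low genes. Where a group has 1 library, its spread is taken to equal that of the other groups. Libraries of a mouse share the animal by their labels (block correlation 0.221), so populations are not independent. Named were the members, up to 4 called genes per list by size, the 5 genes of highest r per member and the nearest gene on each side, of which 1 gene of the likeness lists is not reported here. Members and lists were chosen with earlier results of these data known. The fit was tested on simulated data. Alternatives were the scaling, a pseudocount of 10, no filter, the regularised log2 table, the groups fitted, a mouse block and left-out libraries. Annotation is GENCODE M21, promoters are from RefSeq.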

Additional observations from a re-analysis of the deposited data

Results flagged for a closer look

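The whole-spleen library of mouse 27265 that entered no comparison held 4 members above every one of the 4 wild-type whole-spleen libraries, as 33.8% of the 16845 genes above 3 counts in it were. Podxl was at 8153 rescaled counts, against 27.3 to 88.1 in wild type and 5280 to 11699 in crisis. C2cd4a was at 345, against 0 to 2.27 and 121 to 310. Trnp1 was at 24.5, against 2.94 to 7.95, and 0610040J01Rik at 47.2, against 20.6 to 43.3 and below the lowest crisis library (66.3). Ankrd36 and Mchr1 were at 1.34 and 1.33 deposited counts, under the 3 counts that a count of 0 allows.

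Podxl in SMP and C2cd4a in whole tissue moved one way in marrow and the other in spleen, when each remission library is set against the mean of older wild type. In spleen all 3 remission libraries were above it (median 4179 for Podxl, 126 for C2cd4a) and in marrow all 3 were below it. The difference between the tissues was not tested. The limma estimate for marrow was -0.75 for Podxl in SMP and 0.09 for C2cd4a in whole tissue, and without mice 2726 and 27265 it was 1.10 and 4.39, above 0 as in spleen. In marrow the older wild-type group is mouse 27265 and 1 other, with 1887 and 181 counts beside 303 and 0.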

How the results depend on the processing

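Under the alternatives the calls on members changed in 3 comparisons, the last of them, spleen against marrow MEP, only where single libraries were left out. Without mice 2726 and 27265, the calls in whole spleen (remission against older wild type) changed in a fit of 2 remission libraries against 1. Both mice were singled out on expression in these libraries, Podxl included. The direction of that change was thus fixed by the choice, and it is a description with no test. Without the same mice, 0 members passed in BM MEP against SMP where 1 had. The mouse as a replicate block, for populations paired by mouse, changed no count of calls and turned Mchr1 in spleen against marrow MEP from 0.05 to -0.33. The cause of the changes was not tested. Without the 2 mice, log2 differences of remission against older wild type turned to 3.02 (Podxl), 5.84 (C2cd4a) and 1.30 (0610040J01Rik) in BM MEP, to 1.10 (Podxl), 1.0 (C2cd4a), 1.44 (Trnp1) and 1.66 (Mchr1) in BM SMP and to 3.71 (Podxl) in whole marrow. C2cd4a in whole marrow (0.09) turned to -0.77 with a pseudocount of 10 and -0.55 in the regularised log2 table, where Ankrd36 in SP SMP turned to 0.01. In spleen against marrow MEP, Mchr1 turned to -0.01 without rescaling, -0.03 with a pseudocount of 10, -0.16 with regularised log2 and -0.38 without the 2 mice, Ankrd36 to -0.02 with a pseudocount of 10 and Trnp1 to -0.01 with regularised log2. Mchr1 in SMP turned to 0.14 without rescaling.

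The list genes called in crisis fell without rescaling from 7 to 4 in BM SMP, 8 to 4 in whole marrow, 11 to 7 in SP SMP and 11 to 7 in whole spleen, and went from 0 to 2 in SP MEP. Fitting only the 2 groups gave 1 in BM MEP, 4 in BM SMP, 1 in SP MEP and 23 in whole spleen. Leaving out the 2 mice gave 1 in SP MEP and 22 in whole spleen. With 1 library left out at a time, counts ran from 0 to 1 in BM MEP, 0 to 12 in BM SMP, 0 to 10 in whole marrow, 0 to 14 in SP SMP and 0 to 4 in whole spleen. The share of all genes called under these alternatives was not counted, so no gain or loss particular to the lists is read from them.

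Leaving out 1 library at a time gave 0 to 1 members called in spleen against marrow MEP and 0 to 2 in BM MEP against SMP. In whole spleen the count changed only without the remission library of mouse 2726, which is the same fit as that without the 2 mice. Remission against older wild type ran in BM MEP from -5.30 to 1.86 (Podxl), -5.88 to 3.93 (C2cd4a), -1.38 to 0.78 (0610040J01Rik) and -1.23 to 0.18 (Ankrd36). In BM SMP it ran from -2.07 to 0.57 (Podxl), -1.84 to 0.82 (C2cd4a), -2.4 to 1.45 (Trnp1), -3.19 to 0.12 (Mchr1) and -0.61 to 0.84 (0610040J01Rik). In whole marrow it ran from -4.01 to 2.29 (Podxl), -1.83 to 0.54 (Trnp1), -3.67 to 3.85 (C2cd4a) and -0.18 to 0.68 (0610040J01Rik). In SP MEP it ran from -1.37 to 6.05 (Podxl), -1.96 to 7.06 (C2cd4a) and -1.26 to 0.32 (Trnp1), and in SP SMP from -0.76 to 0.22 (Ankrd36) and -0.26 to 0.31 (0610040J01Rik). Spleen against marrow ran in whole tissue from -0.28 to 3.21 (Podxl), -1.55 to 0.41 (Trnp1) and -1.12 to 0.35 (Mchr1), in MEP from -0.87 to 0.97 (Mchr1), -0.51 to 0.95 (Ankrd36) and -0.46 to 1.26 (Trnp1), and in SMP from -1.57 to 1.48 (Mchr1). BM MEP against SMP ran from -1.70 to 1.58 (Podxl) and -1.27 to 3.28 (C2cd4a). The single older wild-type library of whole spleen and of SP SMP could not be left out. Groups of 1 to 3 libraries from few mice limit the precision, and raw read depth was not used here.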
